A study of Mus musculus with 12 samples.

Results

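The genes described here encode the potassium, sodium and calcium channel subunits of the mouse spinal cord, measured after injury in total RNA and in RNA bound to polysomes. A gene belonged to the set if a probe set carried its symbol alone and that symbol began with Kcn (Kcnj10 was left out), with Cacn, or with Scn followed by a number and a or b. The array held 136 such probe sets for 93 genes, of 12394 genes named by a single symbol. Signal was high enough to test 73 of the 93, and 50 of those 73 lay above every absent control (a probe set for a bacterial gene with no transcript in the sample) on all 12 arrays. The prefixes reach beyond voltage-gated channels: they also take in inward rectifiers (Kcnj), leak channels with tandem pore domains (Kcnk), calcium-activated potassium channels (Kcnm and Kcnn) and the Cacng proteins, most of which escort AMPA receptors.

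The 4 groups of 3 arrays were injured and sham cord in polysome-bound RNA, and injured and sham cord in total RNA. All mice were wild-type C57BL/6 females of 10 weeks; injured mice had 80% of the cord cut and sham mice a laminectomy only, and 2.5 cm of cord was taken 9 hours after the operation. The sample titles call the sham cords naive, and the labels speak of biological replicates without saying whether animals were pooled. Polysomes are mRNAs carrying several ribosomes, which the authors separated on sucrose gradients from the homogenate that also gave the total RNA.

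A voltage-gated potassium (Kv) channel is assembled from several pore-forming subunits and opens on depolarization, which brings the membrane back to rest. Cytoplasmic and membrane-spanning auxiliary subunits set where these channels go and how fast they close. In the spinal cord, sodium channels crowd at axon initial segments and nodes of Ranvier, Shaker-type potassium channels sit beside the node under the myelin, and calcium channels at nerve endings trigger transmitter release.

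Several properties of the arrays moved with injury and accompany every result below; their part in the results was not tested. The signal of Gapdh probes near the 3′ end exceeded that of probes near the 5′ end by 2.83 ± 0.27 on the log2 scale in injured and 0.87 ± 0.03 in sham polysome-bound RNA, and by 1.40 ± 0.22 in injured and 0.23 ± 0.05 in sham total RNA (SD, n = 3 arrays; exact two-sided permutation p = 0.1 each, the smallest that 3 against 3 arrays allow). This difference is a usual measure of RNA integrity and is larger where transcripts are less complete. The mean of the hybridisation spikes, which are added apart from the tissue RNA, was 10.37 in injured and 10.81 in sham polysome arrays, and 10.45 in injured and 10.99 in sham total RNA arrays, with no overlap. In total RNA the 25th percentile of signal was also lower in injured arrays, by 0.15. The deposited arrays do not share a common distribution: the median change of all 10371 genes tested between injured and sham was -0.04 on polysomes and 0.12 in total RNA. The medians of the 73 channel genes were -0.07 in both fractions. Of 13 neuron markers tested, 3 were higher and 4 lower after injury on polysomes, and 9 were higher and 3 lower in total RNA. Among all genes tested, 13.7% were called higher and 25.3% lower on polysomes, and 42.1% and 18.1% in total RNA. After quantile normalization 2 of the neuron markers were higher and 4 lower on polysomes. In total RNA 1 of these markers was then higher and 3 were lower. Their mean signal lay between 10.97 and 11.04 in injured and between 11.02 and 11.08 in sham polysome-bound RNA, and between 10.95 and 11.05 in injured and 10.89 and 10.99 in sham total RNA, so the ranges overlapped in each fraction. That mean joins opposite moves. In total RNA Syt1 (-0.94), Rbfox3 (-0.83) and Map2 (-0.41) fell, and the largest rise was that of Elavl4 (0.64). The polysome change exceeded the total RNA change in the 3 that fell (by 0.58, 0.62 and 0.39). It was called below the total RNA change in 7 of the 13 as deposited and in 2 after quantile normalization. In whole cord, fewer cells of a type and less RNA per cell cannot be told apart.

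In total RNA most Kv pore subunits fell. Of 17 tested (of 20 on the array), 11 were lower and 2 higher in injured than in sham cord, and their median change was -0.24. Over all genes tested, 18.1% were called lower and 42.1% higher (limma, adjusted p under 0.05), so the class ran against the general direction of this comparison. After quantile normalization 9 of the 17 were lower and 2 higher, against 18.0% and 22.8% of all genes. A signal filter at the array median drops dimmer genes, so fewer than 17 were tested, and it left 6 lower and 1 higher. Over all genes that filter left 657 called lower, against 1873 with the main filter. The number of genes tested under it is not given here, so these counts cannot be read as shares. The 2 that rose in the deposited values were Kcna5 (0.20) and Kcnd2 (0.31). The count of rises was 1 without replicate 2 or replicate 3 of sham total RNA, or without replicate 2 of injured total RNA, and Kcnd2 was not called after quantile normalization (0.07).

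The largest fall was that of Kcnc1, a Shaw-type subunit of channels that let neurons fire at high rates. Its log2 signal in total RNA was 7.87, 7.78 and 7.94 in injured cord, against 8.76, 8.72 and 8.80 in sham cord. Every injured array lay below every sham array, and the change was -0.90 ± 0.12 (limma SE, adjusted p = 4.46e-05).

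Kcna2, a Shaker-type subunit of juxtaparanodal axon membrane, had 7.02, 6.99 and 7.12 in injured against 7.91, 7.81 and 7.81 in sham total RNA. The change was -0.80 ± 0.06 (limma adjusted p = 5.17e-07). Kcna1, its usual partner in those channels, had 10.32, 10.23 and 10.61 in injured against 11.11, 11.10 and 11.12 in sham total RNA. All 3 injured arrays lay below every sham array, and the change was -0.72 ± 0.11 (limma adjusted p = 9.28e-05).

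Kcnh1, the ether-à-go-go subunit, had 7.25, 7.17 and 7.21 in injured against 7.83, 7.92 and 7.69 in sham total RNA, a change of -0.60 ± 0.08 (limma adjusted p = 4.23e-05). The other falls in the class were smaller: Kcnd1 (-0.48), a Shal-type subunit of A-type current; Kcnh3 (-0.30) of the ether-à-go-go-like branch; Kcns1 (-0.28), which opens no channel alone and modifies others; Kcnh2 (-0.27) and Kcnh7 (-0.24), both of the ERG type; Kcna7 (-0.19); and Kcnq1 (-0.13). Kcnq1 was above every absent control on 0 of the 12 arrays and Kcnd1 and Kcns1 on 4 each, so those signals lie near background. That background itself was lower after injury in total RNA: the highest absent control averaged 6.85 in injured and 7.04 in sham arrays, a difference of -0.19 with no overlap, close in size to the smaller of these falls. Quantile normalization left Kcnh7 (-0.11), Kcna7 (-0.10) and Kcnq1 (0.01) without a call.

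**Figure D1:**
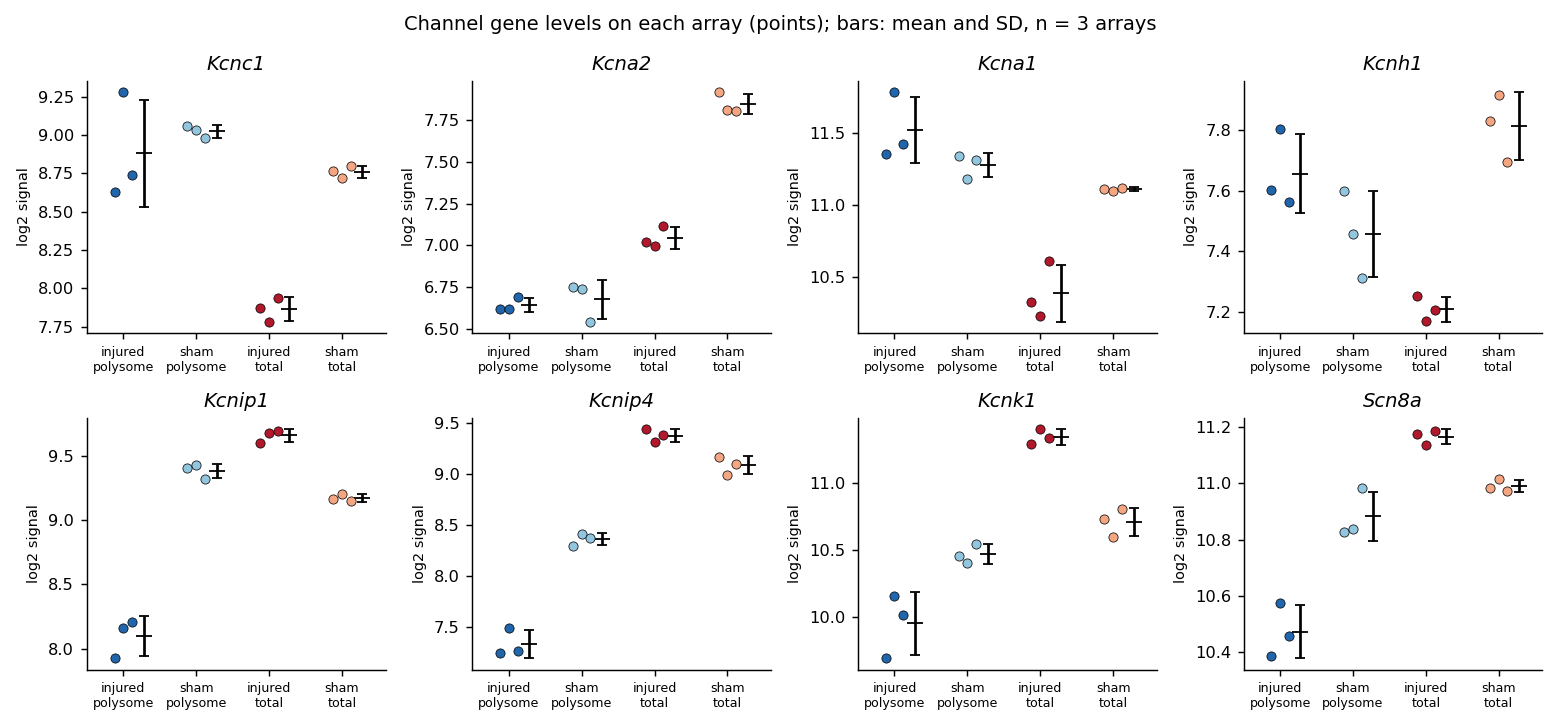
Deposited log2 signal of 8 channel genes on each of the 12 arrays (points), with group mean and SD (bars, n = 3), in the order injured polysome, sham polysome, injured total, sham total. The upper 4 genes, all Kv pore subunits, were lower after injury in total RNA by 0.60 to 0.90, and as deposited none of them was called on polysomes; the lower 4 genes were lower after injury on polysomes.

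The 250 bases before the annotated start are shown for the Kv pore genes with the largest falls, because they moved together in total RNA. Of 4 genes looked for, 3 were found in the RefSeq promoter table of build GRCm38.p6; Kcna1 is named only. Sequences run 5′ to 3′ on the gene's strand, which is plus for all 3, and capitals mark matches on either strand to TGACG (the core of a cAMP response element, and part of the longer TGACGTCA), GGGCGG (a GC box), TATAAA or TTCAGCACC (part of the RE1 element bound by Rest). The Kcna2 window is chr3:107101317-107101566, the Kcnc1 window chr7:46396218-46396467 and the Kcnh1 window chr1:192190527-192190776.
Kcna2: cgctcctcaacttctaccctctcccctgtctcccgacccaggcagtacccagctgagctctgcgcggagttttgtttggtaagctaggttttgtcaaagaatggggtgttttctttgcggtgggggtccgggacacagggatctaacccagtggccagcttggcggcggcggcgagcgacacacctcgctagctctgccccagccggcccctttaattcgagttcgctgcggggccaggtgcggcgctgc
Kcnc1: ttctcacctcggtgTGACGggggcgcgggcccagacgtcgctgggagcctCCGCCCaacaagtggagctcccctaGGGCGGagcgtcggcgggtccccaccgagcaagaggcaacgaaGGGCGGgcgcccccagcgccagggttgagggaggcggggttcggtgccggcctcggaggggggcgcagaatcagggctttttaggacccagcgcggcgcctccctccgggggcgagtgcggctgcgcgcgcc
Kcnh1: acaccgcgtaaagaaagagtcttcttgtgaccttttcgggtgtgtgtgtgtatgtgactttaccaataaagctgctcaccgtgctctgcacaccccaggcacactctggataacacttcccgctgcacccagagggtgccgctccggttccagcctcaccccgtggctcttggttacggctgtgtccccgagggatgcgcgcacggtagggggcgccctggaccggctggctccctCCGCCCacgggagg
The windows were 62.4% (Kcna2), 74.4% (Kcnc1) and 62.0% (Kcnh1) G and C, against a median of 52.4% over 32851 windows of the same length. Kcnc1 held 3 GC boxes and 1 TGACG, Kcnh1 held 1 GC box, and Kcna2 held none of these letters. A GC box occurred in 32.7% of all windows and TGACG in 17.8%; TGACGTCA (1.55% of all windows), TATAAA (12.4%) and TTCAGCACC (0.301%) were absent from the 3 windows shown.

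The remaining potassium channel classes had few large changes in total RNA. Among 8 auxiliary Kv subunits tested (of 12), 3 rose and 1 fell. Kcnip1 encodes a calcium-binding protein that carries Shal channels to the membrane, and its signal was 9.60, 9.68 and 9.69 in injured against 9.16, 9.20 and 9.15 in sham total RNA, a change of 0.48 ± 0.07 (limma adjusted p = 9.52e-05). The mean of the Kcnip1 probe sets gave 0.07, not called. Its relatives Kcnip4 and Kcnip3 (Kcnip3 is also the transcriptional repressor DREAM) changed by 0.29 and -0.37. Kcnab1, a cytoplasmic partner of Shaker channels, rose by 0.33. The calls of Kcnip4 and Kcnab1 were lost after quantile normalization (0.09 and 0.04) and with the mean of probe sets (0.11 and -0.03).

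Of 8 tandem-pore channels, 1 rose and 4 fell (Kcnk4, Kcnk5, Kcnk7 and Kcnk10, by 0.13 to 0.23). None of these 4 falls was called after quantile normalization, which called Kcnk13 lower (-0.25), and Kcnk10 exceeded every absent control on 0, Kcnk5 on 5 and Kcnk4 on 6 of the 12 arrays. The one that rose was Kcnk1, a background leak channel: 11.29, 11.41 and 11.34 in injured against 10.73, 10.60 and 10.81 in sham total RNA, a change of 0.64 ± 0.10 (limma adjusted p = 0.000119). Of 8 inward rectifiers tested (of 12), Kcnj8 rose by 0.38 and Kcnj4 and Kcnj11 fell by 0.26 and 0.46; Kcnj8 and Kcnj11 are pore subunits of ATP-sensitive channels. Kcnj8 is typical of vascular mural cells. The 7 endothelial and mural markers averaged 9.05 to 9.10 in injured and 8.86 to 9.07 in sham total RNA. Of these markers 3 were higher and 1 lower, near the 42.1% higher and 18.1% lower among all genes. After quantile normalization 2 were higher and 2 lower. The part of these cells in the rise of Kcnj8 was not tested. Kcnj11 exceeded every absent control on 1 of 12 arrays and Kcnj4 on 0 of the 6 total RNA arrays, and Kcnj4 was not called after quantile normalization (-0.11). Of 8 calcium-activated subunits tested (of 9), 4 fell, among them Kcnma1, the pore of the large-conductance channel, by 0.41.

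Of 5 sodium channel pore subunits tested (of 8), 3 rose in total RNA, with Scn1a at 0.34, Scn8a at 0.18 and Scn7a at 0.16. Scn1a and Scn8a form the channels of axon initial segments and nodes; Scn7a is a sodium sensor better known from glia and exceeded every absent control on 3 arrays. These are small rises: after quantile normalization Scn1a changed by 0.04 and Scn8a by -0.12, neither called. With the mean of probe sets Scn1a was called lower (-0.30) and Scn8a was not called (0.009). Leaving out sham total array 1 (0.17) or 3 (0.17), or injured total array 1 (0.17) or 3 (0.16), ended the Scn8a call, and leaving out sham total array 1 (0.15) or injured total array 3 (0.13) ended that of Scn7a. Scn2a (-0.14, adjusted p = 0.0966) and Scn11a were not called, but Scn2a was called lower after quantile normalization (-0.33) and after centring (-0.15). The accessory subunit Scn3b was at 0.23 (limma adjusted p = 0.0422), and that call was lost in 5 of the 6 fits that left out an array of total RNA.

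Among 7 Cav pore subunits tested (of 9), 3 rose and 2 fell. Cacna1b, the presynaptic N-type pore, had 7.19, 7.25 and 7.47 in injured against 7.95, 7.83 and 7.87 in sham total RNA, a change of -0.58 ± 0.07 (limma adjusted p = 1.42e-05). Cacna1h, a low-voltage-activated T-type pore, rose by 0.23. Cacna1d rose by 0.18 (not called after quantile normalization, 0.16), and Cacna1a, the P/Q-type pore, by 0.24, a call that ended when sham total array 2 (0.14) or injured total array 1 (0.21) or 3 (0.23) was left out. With the mean of probe sets Cacna1d (-0.0093) and Cacna1a (0.03) were not called. Cacna1f fell by 0.18, but exceeded every absent control on 3 of 12 arrays and was not called after quantile normalization (-0.04). Cacna1c did not pass the test (0.11). Cacna2d1, the auxiliary subunit that binds gabapentin, fell by 0.34, Cacna2d2 fell by 0.28 and Cacna2d3 rose by 0.29. Cacnb4, a cytoplasmic beta subunit, rose by 0.38 and Cacnb1 fell by 0.32; Cacna2d3, Cacnb4 and Cacnb1 were not called after quantile normalization (0.03, 0.10 and -0.18). Of 5 Cacng genes tested (of 8), 3 fell: Cacng3 by 0.48, Cacng4 by 0.43 and Cacng8 by 0.24. Cacng8 exceeded every absent control on 5 of 12 arrays. After quantile normalization Cacng8 was not called (-0.10) and Cacng2 was called lower (-0.36).

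Counted over all 73 genes, 16 rose and 30 fell in total RNA, beside 42.1% higher and 18.1% lower among all genes. Of the 16 rises, 7 kept their call after quantile normalization and 4 kept it under both other scalings and in all 12 fits that left out an array (Cacna1h, Kcnip1, Kcnj8 and Kcnk1). Of the 30 falls, 16 kept their call in the same set of fits, and 8 of those are Kv pore subunits: Kcna1, Kcna2, Kcnc1, Kcnd1, Kcnh1, Kcnh2, Kcnh3 and Kcns1. The 23 genes not above every absent control on all arrays contributed 14 of the falls and 2 of the rises.

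**Figure D2:**
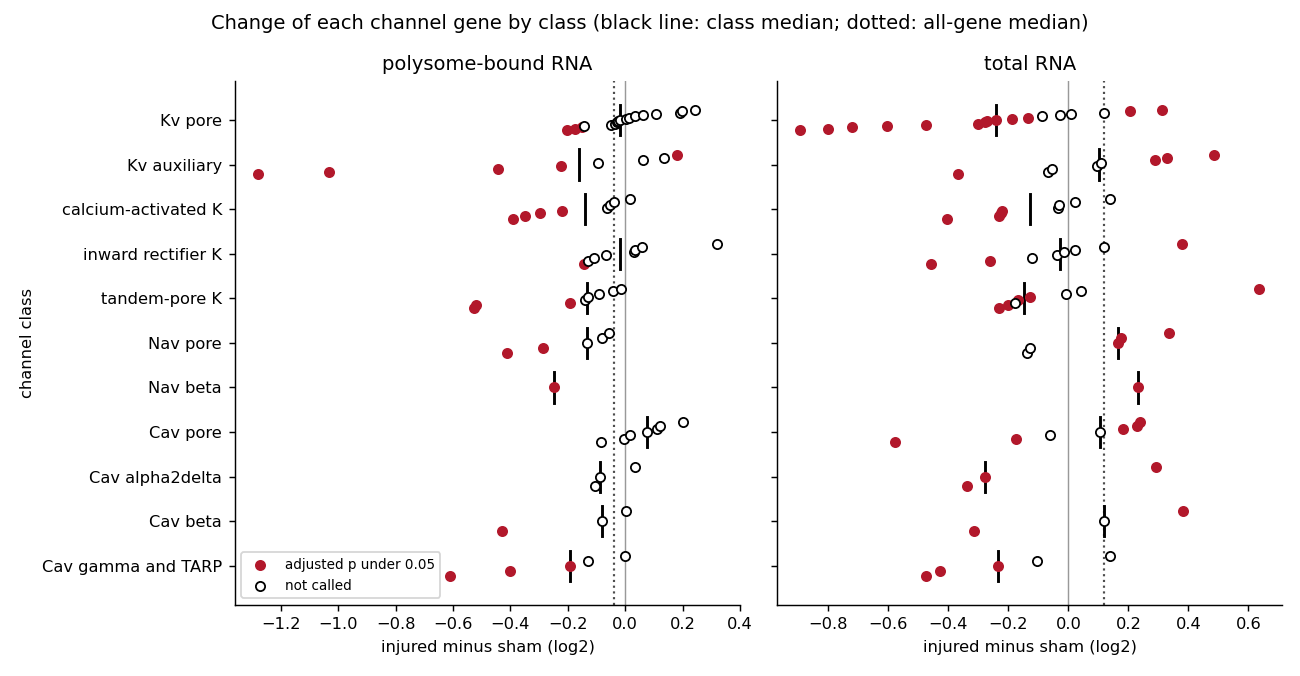
Injured minus sham log2 change of each of the 73 channel genes by class, on polysomes (left) and in total RNA (right). Filled points passed an adjusted p of 0.05; black lines are class medians and the dotted line is the median of all genes. The Kv pore class is displaced to the left in total RNA (median -0.24) and lies around 0 on polysomes (median -0.02).

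Probe sets of the same gene often disagreed in total RNA, and the direction stated for a gene is that of its brightest probe set. There were 24 genes with 2 or more usable probe sets, which gave 29 pairs. The other probe set had the lower change in 14 of the 29 pairs (48.3%) on polysomes, with a median difference of 0.00, and in 26 (89.7%) in total RNA, with a median of -0.35. Over 6195 pairs of all genes the shares were 61.4% on polysomes and 72.6% in total RNA, with medians of -0.06 and -0.15. In total RNA the brightest Scn1a probe set changed by 0.34 and the other by -0.93, in Cacnb4 by 0.38 and -0.79, in Kcnab1 by 0.33 and -0.38, and in Kcnab2, which was not called, by 0.10 and -1.21. Kcnd2 had 0.31 for the brightest, against -0.13 and -0.58 for the others. The brightest and the other probe set gave 0.24 and -0.17 in Cacna1a, 0.18 and -0.20 in Cacna1d, and 0.23 and -0.04 in Cacna1h. They gave 0.18 and -0.16 in Scn8a, and -0.14 and 0.29 in Scn2a. In total RNA the signs were opposite in 16 of the 29 pairs. The Kcnk1 probe sets gave 0.64 and 0.60. Where along each transcript a probe set lies is not given in the sources used here.

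**Figure D3:**
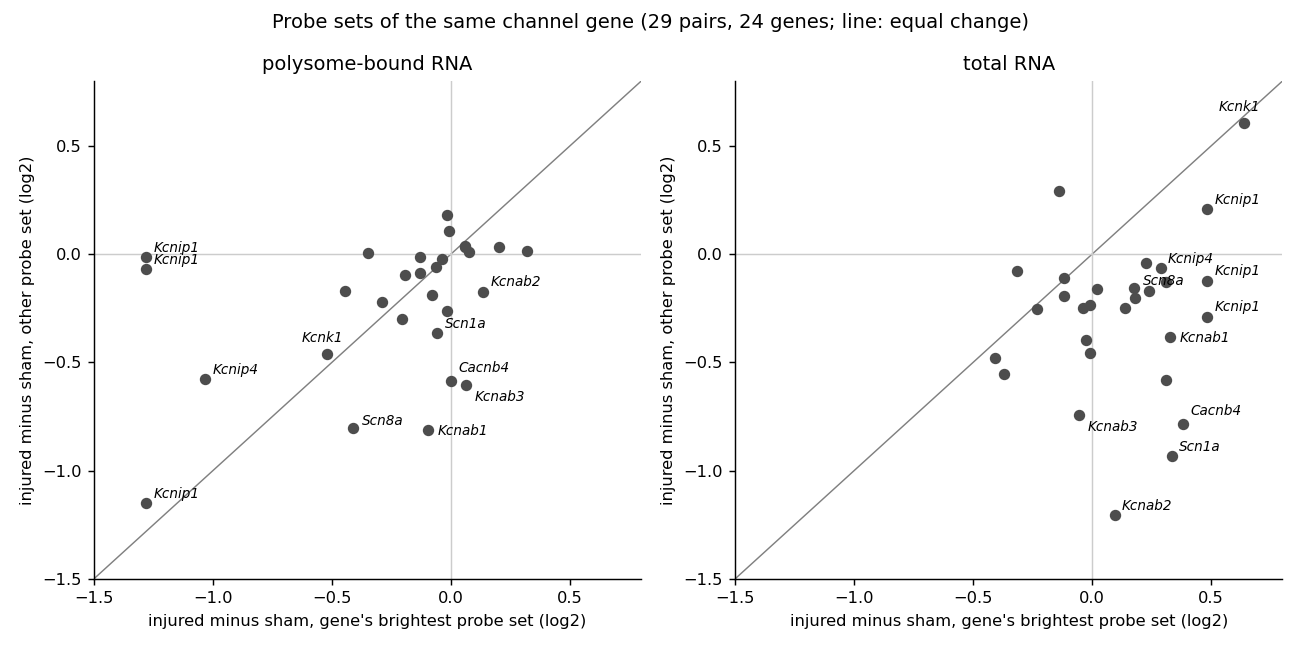
Injured minus sham log2 change of the brightest probe set of a gene (horizontal) and of each other probe set of that gene (vertical), 29 pairs of 24 genes, on polysomes (left) and in total RNA (right). In total RNA 26 points lie below the line of equal change; Kcnk1 lies next to it in both panels.

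On polysomes the channel genes that changed almost all fell: 22 were lower and 1 was higher in injured cord, against 25.3% lower and 13.7% higher among all genes tested. The share lower, 22 of 73, is near that background. The count depends on scaling, with 16 lower and 9 higher after quantile normalization, against 18.1% and 22.3% of all genes. Of the 22, 13 kept their call under both other scalings and in every fit that left out an array: Cacnb2, Cacng2, Cacng3, Kcnip1, Kcnip3, Kcnip4, Kcnk1, Kcnk13, Kcnma1, Kcnmb4, Kcnn2, Scn2a and Scn8a. The single rise was Kcne4, a small membrane-spanning regulator (0.18, limma adjusted p = 0.0383), and it was lost without sham polysome replicate 1 (0.16), 2 (0.20) or 3 (0.18), without injured polysome replicate 1 (0.16) or 2 (0.15), and without sham total replicate 1 (0.18).

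The Kv auxiliary proteins of the Kcnip family carried the largest falls. The brightest Kcnip1 probe set read 7.92, 8.16 and 8.21 in injured against 9.40, 9.42 and 9.31 in sham polysome-bound RNA. The change was -1.28 ± 0.07 (limma adjusted p = 4.07e-08). The next Kcnip1 probe set by brightness read 6.95, 7.18 and 7.07 in injured against 8.14, 8.33 and 8.18 in sham polysome-bound RNA, a change of -1.15. The remaining pair gave -0.07 and -0.02 on polysomes and -0.29 and -0.12 in total RNA. Their polysome-bound signals, 6.38 to 6.53 in injured and 6.43 to 6.50 in sham cord, lay near the highest absent controls, which averaged 6.44 and 6.46.

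Kcnip4 had 7.24, 7.48 and 7.26 in injured against 8.29, 8.41 and 8.37 in sham polysome-bound RNA, a change of -1.03 ± 0.07 (limma adjusted p = 3.63e-07). Its other probe set changed by -0.58. Kcnip3 read 7.61, 7.68 and 7.75 in injured and 8.19, 8.13 and 8.06 in sham polysome-bound RNA, a change of -0.44. Kcnip3 is the member of the family that also fell in total RNA.

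Kcnk1 had 9.69, 10.15 and 10.01 in injured against 10.46, 10.41 and 10.55 in sham polysome-bound RNA, a change of -0.52 ± 0.10 (limma adjusted p = 0.000883), and its other probe set changed by -0.46. Kcnk13, a leak channel known from microglia in mice, had 7.19, 7.33 and 7.46 in injured against 7.85, 7.86 and 7.86 in sham polysome-bound RNA, a change of -0.53 ± 0.07 (limma adjusted p = 9.43e-05). The 5 microglia markers tested averaged 7.90 in injured and 8.30 in sham polysome-bound RNA, with non-overlapping groups. Of the 5, 3 were called lower, against 25.3% of all genes. Their part in the fall of Kcnk13 was not tested.

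Cacng2, the AMPA receptor escort stargazin, had 8.18, 8.26 and 8.35 in injured against 8.78, 8.83 and 9.02 in sham polysome-bound RNA, a change of -0.61 ± 0.07 (limma adjusted p = 2.04e-05). Its relative Cacng3 changed by -0.40, and in injured polysome-bound RNA Cacng3 exceeded every absent control on none of 3 arrays. Cacnb2, a beta subunit of high-voltage-activated calcium channels, changed by -0.43; in injured polysome-bound RNA it exceeded every absent control on none of 3 arrays. Scn8a, the main sodium channel pore of mature nodes, had 10.39, 10.57 and 10.46 in injured against 10.83, 10.84 and 10.98 in sham polysome-bound RNA, a change of -0.41 ± 0.06 (limma adjusted p = 0.000186). Its other probe set changed by -0.80.

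Scn2a, the sodium channel pore of unmyelinated and developing axons, changed by -0.29 on polysomes. Among calcium-activated channels Kcnma1 changed by -0.35, its neuronal partner Kcnmb4 by -0.39 and the small-conductance pore Kcnn2 by -0.30. The mean of the Kcnma1 probe sets gave -0.17 (adjusted p = 0.151). No Cav pore subunit was called on polysomes, and the 7 tested lay between -0.09 and 0.20. Quantile normalization and centring each gave 3 higher, which after quantile normalization were Cacna1a (0.28), Cacna1c (0.18) and Cacna1g (0.20). Of the 17 Kv pore subunits, Kcna3 (-0.18), Kcna4 (-0.15) and Kcnc4 (-0.20) were called lower and none higher, with 14 not called. In injured polysome-bound RNA Kcna3 exceeded every absent control on 0 and Kcna4 on 1 of 3 arrays. That count of 3 fell to 1 without sham polysome replicate 1 or 2 or injured polysome replicate 3, and to 0 without sham polysome replicate 3. Other scalings changed these counts. After quantile normalization 3 of the 17 were higher (Kcna1 at 0.29, Kcnh1 at 0.27 and Kcnh2 at 0.26) and 1 lower, against 22.3% and 18.1% of all genes. After centring 4 were higher and 0 lower, against 23.98% and 17.97% of all genes. Under both scalings the class showed no excess of rises over all genes, and a smaller share of falls.

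Kcnj9, a G protein-gated inward rectifier, was not called but had the widest spread of the set. It read 6.22, 7.94 and 6.30 in injured polysome-bound RNA, against 6.52, 6.45 and 6.53 in sham polysome-bound RNA. Replicate 2 of injured cord stood apart in total RNA too, at 7.78 beside 7.17 and 7.21. The levels of Kcnk2 and Kcnj3 differed little between operations in either fraction: Kcnk2 changed by -0.09 on polysomes and 0.04 in total RNA, and Kcnj3 by 0.03 and -0.02, none of them called.

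**Figure D4:**
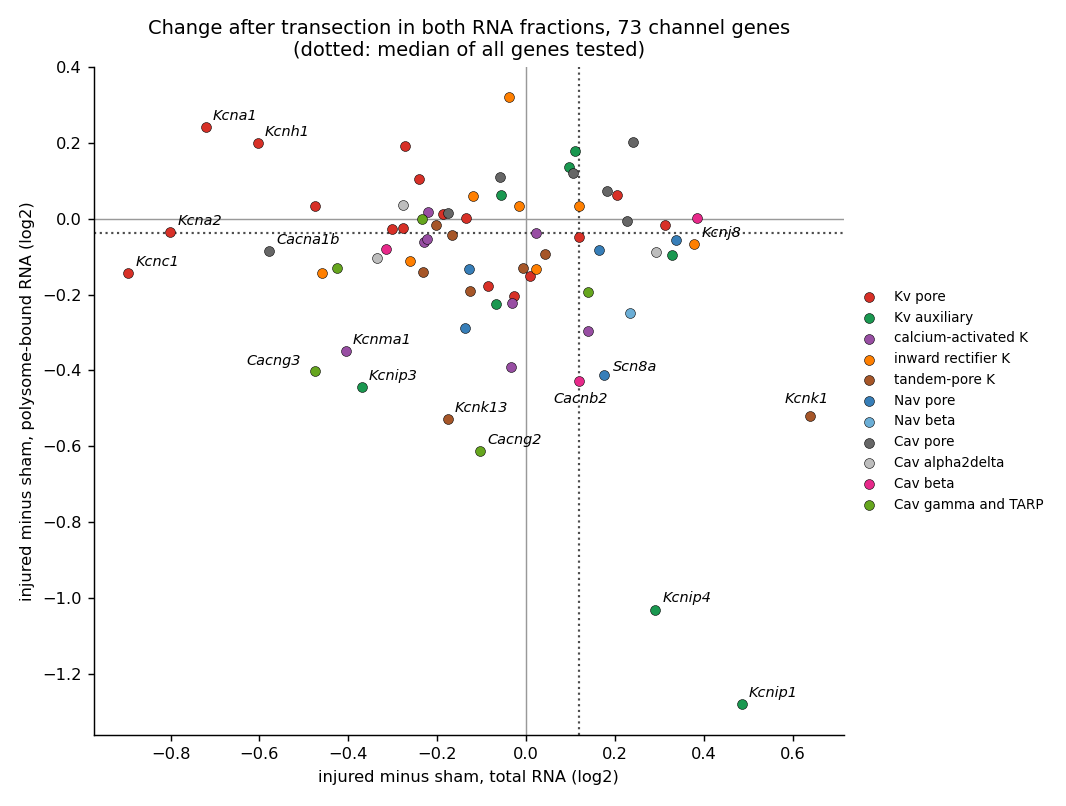
Injured minus sham log2 change in polysome-bound RNA (vertical) and in total RNA (horizontal) for the 73 channel genes, coloured by class; dotted lines are the medians of all 10371 genes. Kcnc1, Kcna2, Kcna1 and Kcnh1 lie far left near 0 on the vertical axis, and Kcnip1, Kcnip4 and Kcnk1 lie at the lower right.

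The difference between the polysome change and the total RNA change (the interaction of operation and fraction) was positive in 16 and negative in 19 of the 73 genes, against 11.0% positive and 39.3% negative among all genes tested. After quantile normalization the counts were 18 positive and 7 negative, against 16.0% and 18.1% of all genes. After centring each array on its median they were 27 and 16, against 17.7% and 30.7% of all genes. Kv pore subunits stood mostly on the positive side, with 10 positive and 1 negative of 17 and a median of 0.25, against a median of -0.16 for all genes. After quantile normalization 8 were positive and none negative. The negative one was Kcnd2 (-0.33), which lost its call under quantile normalization and without sham total replicate 2 (-0.26). Without injured polysome replicate 1 or 2 the negative count was 2 or 3.

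Kcna1 had the largest positive difference, 0.96 ± 0.15 (limma adjusted p = 0.000262). On polysomes it read 11.36, 11.78 and 11.42 in injured against 11.34, 11.18 and 11.31 in sham cord (0.24, adjusted p = 0.088), while total RNA fell by 0.72. Kcnh1 differed by 0.80, with a polysome change of 0.20 that was not called. Kcna2 differed by 0.76, and its polysome-bound signal was 6.62, 6.62 and 6.69 in injured against 6.75, 6.74 and 6.54 in sham cord, with overlapping groups. Kcnc1 differed by 0.75; one injured polysome array (9.28) lay above the sham arrays and the others (8.63 and 8.74) below them. Without that array the Kcnc1 difference was 0.55 and its polysome change -0.34, which was then called (limma adjusted p = 0.00102). Kcnd1 (0.51), Cacna1b (0.49), Kcnh2 (0.46) and Kcnh7 (0.35) followed. All 8 kept their call after quantile normalization, with Kcna1 at 1.36, Kcnh1 at 0.86, Kcna2 at 0.78 and Kcnc1 at 1.04. Kcnd1 (6.38 in injured and 6.35 in sham cord) exceeded every absent control on none of its polysome arrays, where a fall could hardly show. Kcna2 (6.64 and 6.68) and Kcnh7 (6.49 and 6.39) were also dim on polysomes, beside highest absent controls averaging 6.44 and 6.46. The median difference was 0.12 in the 23 channel genes not above every absent control on all arrays, and -0.08 in the other 50.

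Kcnip1 had the largest negative difference, -1.77 ± 0.10 (limma adjusted p = 6.93e-07), followed by Kcnip4 at -1.32 ± 0.10 (limma adjusted p = 4.29e-06) and Kcnk1 at -1.16 ± 0.14 (limma adjusted p = 5.2e-05). In all 3 the brightest probe set was lower on polysomes and higher in total RNA after injury, with no overlap of groups in either fraction. In total RNA the other Kcnip4 probe set changed by -0.07, with overlapping groups. The other Kcnip1 probe sets changed there by 0.21, -0.29 and -0.12, and the other Kcnk1 probe set by 0.60. After quantile normalization the differences were -1.36 (Kcnip1), -0.95 (Kcnip4) and -0.80 (Kcnk1), all called, with Kcnip4 no longer called higher in total RNA. Cacnb2 (-0.55) and Kcnj8 (-0.45) also kept their call under both scalings. On polysomes Kcnj8 averaged 6.42 in injured and 6.49 in sham cord, above every absent control on 1 and 2 of 3 arrays. Its polysome change was only -0.07, and at that level a fall could hardly show. Cacnb2 exceeded every absent control on 0 of 3 injured polysome arrays. Scn8a (-0.59), Cacng2 (-0.51) and Scn3b (-0.48) did not pass after quantile normalization (-0.20, -0.12 and -0.18). The Scn8a and Cacng2 falls on polysomes kept their calls there.

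Within an operation, polysome-bound signal was set against total RNA signal, with target prepared from 3 µg of polysome-bound or 5 µg of total RNA. In injured cord 8 channel genes were higher and 59 lower on polysomes than in total RNA, beside 13.6% and 72.7% of all genes; in sham cord 7 were higher and 59 lower, beside 21.0% and 59.1%. These splits follow the scaling: in injured cord they became 25 and 25 after quantile normalization (40.9% and 32.4% of all genes) and 33 and 18 after centring (53.0% and 23.7%). In sham cord they became 20 and 33 (38.2% and 29.1% of all genes) and then 26 and 29 (54.3% and 18.9%), with more channel genes lower than higher where more of all genes were higher. The values below are therefore given relative to the all-gene medians as deposited, -0.41 in injured and -0.30 in sham cord. The channel genes' own medians were -0.53 in injured and -0.50 in sham cord.

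In injured cord Kcna1 stood 1.55 and Kcnc1 1.43 above the all-gene median, followed by Cacna2d2 (1.11), Kcnab3 (0.98) and Kcnh1 (0.86). The genes farthest below it were Kcnip4 (-1.63), Cacnb2 (-1.35), Kcnip1 (-1.14), Kcnk1 (-0.98) and Kcnj8 (-0.97). On injured polysome arrays Cacnb2 (6.17) and Kcnj8 (6.42) were no brighter than the highest absent controls, which averaged 6.44. In sham cord the genes farthest above were Cacnb4 (0.95), Kcnab3 (0.75), Cacna2d2 (0.68), Cacna2d3 (0.68) and Kcnab1 (0.62). Those farthest below were Cacnb2 (-0.92), Cacng3 (-0.92), Kcna2 (-0.86), Cacna1d (-0.75) and Cacna1b (-0.73). Cacnb2 was thus far below the median in both operations, and Kcnab3 and Cacna2d2 above it in both, whereas Kcnip1 and Kcnk1, far below it in injured cord, stood 0.51 and 0.06 above it in sham cord. The calls for these 20 values were the same after quantile normalization and after centring. With the mean of probe sets Kcnab3 lost its call in injured (0.04 as deposited) and sham cord (-0.09), and Kcnab1 in sham cord (-0.07). The other Kcnab3 probe set was lower on polysomes, at 7.43 against 7.91 in total RNA in injured cord and 8.03 against 8.66 in sham cord.

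**Figure D5:**
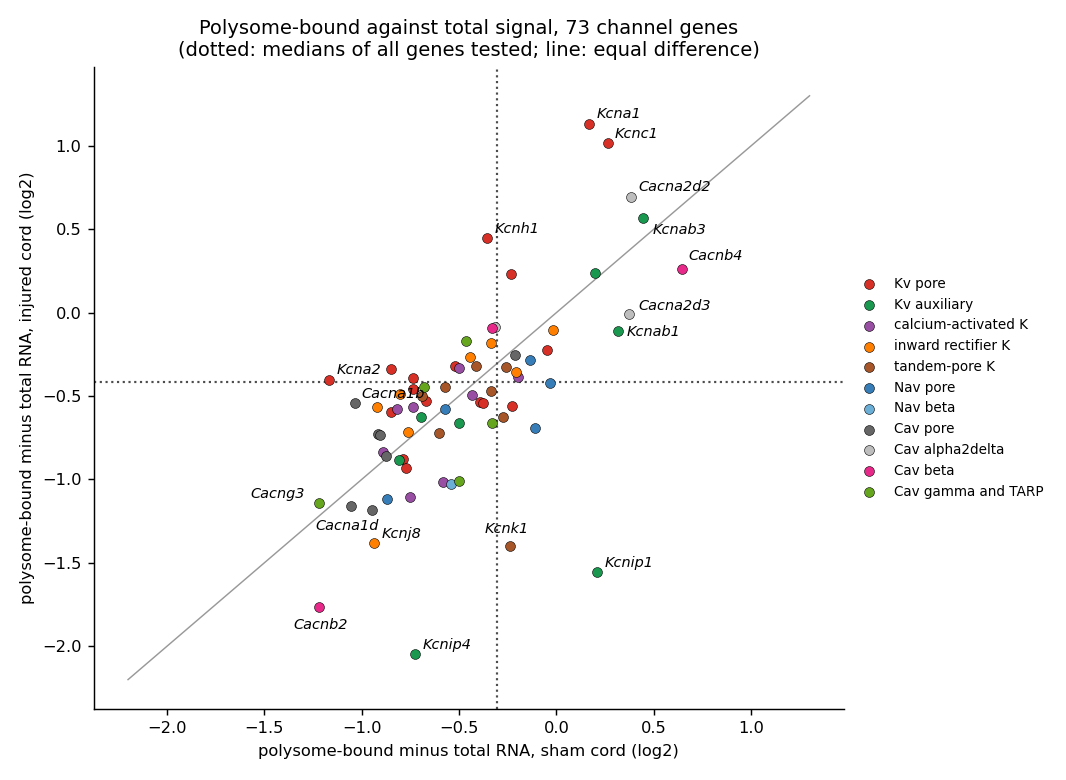
Polysome-bound minus total RNA log2 signal in injured cord (vertical) and sham cord (horizontal) for the 73 channel genes, coloured by class; dotted lines are the all-gene medians (-0.41 in injured and -0.30 in sham cord). Kcna1, Kcnc1 and Kcnh1 lie above the line of equal difference, and Kcnip1, Kcnip4 and Kcnk1 below it.

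The proteins that anchor and modulate these channels were followed in a list of 32 genes on the array, of which 30 were tested. On polysomes 4 rose and 9 fell, with a median of -0.06, and in total RNA 13 rose and 7 fell, with a median of 0.11. Both the counts and the medians are near those of all genes (13.7% higher and 25.3% lower on polysomes, 42.1% higher and 18.1% lower in total RNA). The largest total RNA fall was that of Stac2, an adaptor of L-type calcium channels (7.69 ± 0.18 in injured against 8.70 ± 0.05 in sham cord, SD, n = 3; -1.01, limma adjusted p = 2.68e-06), which was also lower on polysomes (-0.50). Dlg4, the postsynaptic scaffold that also clusters Shaker channels, fell by 0.73 in total RNA with no call on polysomes (0.11). Rest, a repressor of neuronal channel genes, was higher on polysomes by 0.22 (not called without sham polysome replicate 1, 0.17) and lower in total RNA by 0.47, where its injured signal (6.85) was at the level of the highest absent control. Cntnap2 and Epb41l3, which hold Shaker channels beside the node, rose by 0.52 and 0.49 in total RNA, as did the kinase subunit Camk2d by 0.51. Their polysome changes differed: Epb41l3 was called lower (-0.25), Cntnap2 higher (0.25), and Camk2d was not called (-0.06). The mean of the Cntnap2 probe sets gave -0.09 on polysomes, not called.

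On polysomes Fgf12, a cytoplasmic partner of sodium channels, had 8.48 ± 0.16 in injured against 9.35 ± 0.02 in sham cord (SD, n = 3; -0.86, limma adjusted p = 1.65e-06). Its total RNA change, 0.19, lost its call under quantile normalization (-0.03) and when sham total array 1 (0.18) or 2 (0.18), or injured total array 1 (0.17) or 3 (0.19), was left out. Hcn2, a pacemaker channel, changed by -0.46, Lgi1, a secreted regulator of Shaker channels, by -0.47, and Sptan1, a spectrin of the axonal skeleton, by -0.29. Ank3, the ankyrin that gathers sodium channels at initial segments and nodes, rose on polysomes by 0.44 (limma adjusted p = 0.000851), but the mean of its probe sets gave 0.0099, not called.

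A further 20 channel genes lay below the signal filter and were not tested, among them Kcnd3, Kcna6, Kcnip2, Scn3a, Scn9a, Scn10a, Cacna1e and Cacng7.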

How the data were processed

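Total and polysome-bound RNA from injured and sham cord was measured on 12 Affymetrix arrays. The deposited values are log2 signals, 1 per probe set and array; the scale was read from their range (5.26 to 14.65), and how the authors corrected background or normalized is not given in the sources used here. They were used as deposited. Symbols came from the platform annotation: of 22690 probe sets, 20393 named 1 gene. Probe sets above the array's 25th percentile on at least 3 arrays were kept (16566), and the brightest by mean stood for a gene, leaving 10371 genes. All 93 channel symbols were in the RefSeq table.

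Limma 3.58.1 in R 4.3.3 (statmod 1.5.0) fitted 4 group means (8 residual degrees of freedom) with an intensity trend. Tests were two-sided, Benjamini-Hochberg adjusted over all genes, threshold 0.05, for 5 comparisons. Array numbers limit the precision. Whether replicates came from separate animals is stated only as "biological replicate", so p-values measure the spread between these samples.

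Named genes were, among called members with no overlap of groups, the 8 largest rises and falls in each injury comparison and the interaction (for which overlap was judged on polysome minus total by replicate number), 5 in either direction per fraction comparison, the 10 members with the highest mean, a standing list of channel genes, and up to 6 partners with the lowest p per injury comparison; others that a count rests on were named after their values were seen. Members, partner and marker lists were chosen with earlier results of these data known.

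Equal replicate numbers were checked by the correlation of deviations from group means: polysome and total samples of sham cord gave 0.23, 0.18 and 0.17 (each sample best with its own number), those of injured cord -0.10, 0.20 and 0.10, and samples of different operations no pairing. Sham fractions alone therefore count as paired by this check. The fit was tested on simulated data. Alternatives were 2 scalings, 2 filters, other choices of probe set, no trend, replicate blocks and leaving out each array.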

Additional observations from a re-analysis of the deposited data

Results flagged for a closer look

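The injury change differed between polysome-bound and total RNA, by limma's interaction test at an adjusted p under 0.05 and with no overlap between the operations in the differences of equal-numbered samples, for these channel genes. Whether equal numbers are paired was not settled by the check above, so these differences may join unpaired samples. The polysome change exceeded the total RNA change in Kcna1 (0.96), Kcnh1 (0.80), Kcna2 (0.76), Kcnc1 (0.75), Kcnd1 (0.51), Cacna1b (0.49), Kcnh2 (0.46) and Kcnh7 (0.35). All 8 also fell in total RNA. On polysomes Kcnd1, Kcna2 and Kcnh7 lay at or near the level of the highest absent controls. The polysome change was below the total RNA change in Kcnip1 (-1.77), Kcnip4 (-1.32), Kcnk1 (-1.16), Scn8a (-0.59), Cacnb2 (-0.55), Cacng2 (-0.51), Scn3b (-0.48) and Kcnj8 (-0.45). Among these, Kcnj8, and Cacnb2 in injured cord, lay near or below the highest absent controls on polysomes. The 3′ to 5′ difference of Gapdh also rose with injury more on polysomes (2.83 in injured against 0.87 in sham) than in total RNA (1.40 against 0.23), and its part in these differences was not tested.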

How the results depend on the processing

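Scaling mattered most. After quantile normalization the channel genes called were 9 higher in total RNA, 9 higher on polysomes, 7 negative in the interaction, 25 higher and 25 lower between fractions in injured cord and 20 and 33 in sham cord; Kv pore subunits on polysomes gave 3 higher and 1 lower, and 0 negative interactions. Centring gave 9 higher and 13 lower on polysomes, 27 positive interactions, 33 and 18 between fractions in injured and 26 and 29 in sham cord; for Kv pore subunits 4 higher and 0 lower on polysomes and 0 negative interactions. The filter at the array median left 11 lower in total RNA, 0 higher on polysomes, 8 positive interactions, 29 lower between fractions in injured and 26 in sham cord; Kv pore subunits then had 1 higher and 6 lower in total RNA, 1 lower on polysomes and 6 positive interactions. The mean of probe sets gave 6 higher in total RNA, 3 higher between fractions in sham cord and, for Kv pore subunits, 1 higher in total RNA and 0 negative interactions. Without the trend 2 were higher on polysomes, and with the replicate number as a fixed block 3 (Kv pore subunits 1). Leaving out each array gave 0 to 4 higher on polysomes; Kv pore subunits gave 1 to 2 higher in total RNA, 0 to 2 higher and 0 to 3 lower on polysomes, and 0 to 3 negative interactions.

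Values that changed sign where either fit made a call were these; the cause was not tested. With the mean of probe sets, total RNA changes became -0.0093 (Cacna1d), -0.20 (Cacnb4), -0.0274 (Kcnab1), -0.55 (Kcnab2), -0.13 (Kcnd2) and -0.30 (Scn1a), polysome changes -0.29 (Cacnb4) and -0.0862 (Cntnap2), interactions 0.10 (Kcnd2), 0.15 (Kcnip3) and 0.0883 (Scn1a), and sham fraction differences -0.066 (Kcnab1) and -0.0879 (Kcnab3). Without probe sets ending in _s_at or _x_at Cacna1d was -0.20 in total RNA and 0.21 in the interaction. Quantile normalization gave total RNA changes of -0.0283 (Fgf12), -0.22 (Kcnab2) and -0.12 (Scn8a) and an interaction of 0.27 (Kcnip3). Of 1908 values from leaving out an array, 52 lost their call, 23 gained one and 0 reversed. A random replicate block, and operation and number as fixed blocks (chosen after seeing the data; interaction 14 positive and 19 negative), changed no count of channel genes by over 1.5 times. Sign changes of values not called in either fit (46) are not counted. Over all genes, calls higher in total RNA were 2360 after quantile normalization (4369 as deposited), those on polysomes 2316 (1426; 2487 after centring), and negative interactions 1877 (4072); centring gave 1838 positive interactions (1136). Lower calls in total RNA were 2865 without the filter and 657 with it at the median (1873), which gave 438 positive interactions. Between fractions, quantile normalization gave 4240 higher and 3363 lower in injured (1413 and 7539) and 3966 and 3017 in sham cord (2175 and 6131), centring 5501 and 2456, and 5632 and 1959, and the stricter filter 4952 and 3493 lower. Signals near the absent controls limit what the dimmer genes can show.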
